A study of Homo sapiens with 12 samples.

Results

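The 7 genes described here are XAF1, its binding partner XIAP, the death ligand TNFSF10 (TRAIL), the TRAIL receptors TNFRSF10A, TNFRSF10B and TNFRSF10D, and the death receptor FAS. They were taken by gene symbol from a table of 60099 genes, and all 7 had enough reads to be tested among 19944 genes. RNA was measured in Cal27 and HN30, established cell lines of head and neck squamous cell carcinoma (HNSCC), in 12 samples without IFNα or 24 h after 20 or 200 ng/ml IFNα. Letters A and D were untreated controls (0 ng/ml), B and E received the low dose of 20 ng/ml, and C and F received the high dose of 200 ng/ml, with replicates 1 and 2 of each letter. Sample titles name only a low dose, and its size of 20 ng/ml is taken from the design text of the series. Which of the lines stands behind a letter is not stated, so the samples are treated as 2 line sets, A-C (A, B and C) and D-F (D, E and F). No transgene, deletion or second agent is named in the labels for any of the samples, and nothing says whether the replicates were separate cultures, so p-values measure only the spread between these samples.

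Cell death through TRAIL starts when the ligand, a membrane protein of the TNF family, binds TNFRSF10A (DR4) or TNFRSF10B (DR5). Both receptors carry a death domain that recruits FADD and caspase-8, as FAS does after binding its own ligand. TNFRSF10D (DcR2) binds TRAIL but has a truncated death domain and acts as a decoy. XIAP inhibits caspases directly, and XAF1 binds XIAP and counteracts that inhibition. XAF1 and TNFSF10 are known as interferon-stimulated genes, which type I interferon switches on through DNA elements with repeated GAAA.

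Values are given as TPM, a unit that corrects for transcript length and sequencing depth and allows levels of different genes to be set side by side. Fold changes are on the log2 scale, with a standard error (SE), and come from the estimated read counts in edgeR fitted over all genes. A gene passed at a Benjamini-Hochberg adjusted p of at most 0.05 over all genes tested, and was called when it also changed by at least 2-fold. Changes over both line sets are averages in which each set has equal weight.

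Estimated counts summed to 10517448 to 16056734 in a sample, and all controls were deeper than all samples at 200 ng/ml. Log expression correlated at 0.940 to 0.976 between samples of a line set and at 0.678 to 0.717 between the sets. All 20 reference interferon-stimulated genes rose by at least 2-fold at either dose, with median log2 changes of 3.36 (200 ng/ml) and 3.13 (20 ng/ml). All 10 squamous epithelial markers were detected in every dose group, with summed TPM between 1206 and 3386 over the 12 samples. Of these 10, KRT14, KRT6A, TP63 and DSG3 passed as higher at 200 ng/ml, among them KRT6A with a log2 change of 1.21 ± 0.11 (SE), and KRT6A alone passed at 20 ng/ml. Of 6 immune markers, PTPRC, CD3E and NKG7 stayed below 0.5 TPM in every sample, while the summed TPM of the 6 went from 5.34 to 12.5 in controls to 18.6 to 40.6 at 200 ng/ml. CD68 was the immune marker that rose, with a log2 change of 1.77 ± 0.14 (SE, edgeR adjusted p = 4.3e-05). Of 6 fibroblast markers, COL3A1, PDGFRA, DCN and LUM stayed below 0.5 TPM in every sample, and the summed TPM of the 6 was between 4.78 and 14.0. Of 3 endothelial markers, VWF stayed below 0.5 TPM in every sample and the summed TPM ran from 0.10 to 21.7. CDH5, the 1 that was tested, passed as lower in D than in A without IFNα, with a log2 change of −7.93. The part of these markers in the results below was not tested.

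XAF1, TNFSF10 and TNFRSF10A rose with IFNα, whereas XIAP, TNFRSF10B, TNFRSF10D and FAS did not pass the test over both line sets. At 200 ng/ml, 3 of the 7 genes passed, all higher, against 9.55% of all genes tested passing in either direction and 4.98% passing as higher. XAF1 and TNFSF10 were called, against 2.14% of all genes. The 3 genes that passed at 20 ng/ml were again XAF1, TNFSF10 and TNFRSF10A, against 3.93% of all genes tested, and XAF1 and TNFSF10 were called, against 1.15%. Both doses share the same 4 controls. The median log2 change of the 7 genes was 0.19 at 200 ng/ml and 0.21 at 20 ng/ml, beside −0.01 over all genes at either dose.

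**Figure D1:**
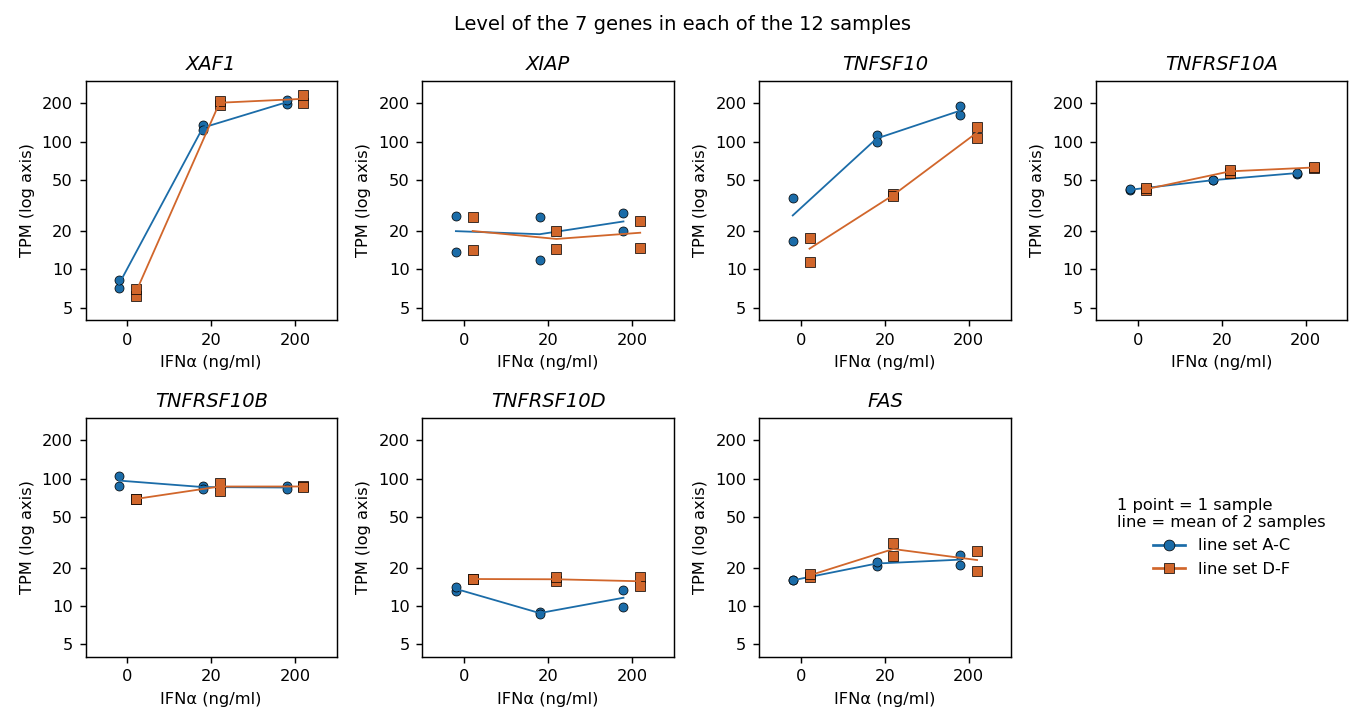
TPM of each of the 7 genes (log axis) against the IFNα dose in ng/ml, with 1 point for each of the 12 samples and lines through the mean of the 2 samples of a dose in line sets A-C and D-F. XAF1 starts at 6.19 to 8.18 TPM in the 4 controls and lies between 124 and 233 TPM in the 8 treated samples, TNFSF10 climbs over both dose steps, and the other 5 genes stay within narrower ranges.

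XAF1, the XIAP-associated factor, had the lowest level of the 7 genes in controls and the highest at 200 ng/ml. The gene lies on chromosome 17 at 6755447 to 6775647 on the plus strand (GRCh38, ENSG00000132530). Controls held 7.15 and 8.18 TPM in A1 and A2 and 6.19 and 7.01 TPM in D1 and D2. After the low dose it was at 135 and 124 TPM in B1 and B2 and at 196 and 209 TPM in E1 and E2. After the high dose C1 and C2 held 197 and 213 TPM, and F1 and F2 held 202 and 233 TPM. No control overlapped with a treated sample, and the lower of the line sets at 20 ng/ml was A-C. The level went from 7.13 ± 0.82 TPM (SD, n = 4) to 166 ± 43.0 and 211 ± 16.0 TPM. XAF1 rose by a log2 change of 4.46 ± 0.09 (SE) at 20 ng/ml (22.1-fold, edgeR adjusted p = 2e-09) and of 4.85 ± 0.09 at 200 ng/ml (28.8-fold, edgeR adjusted p = 8.1e-10). By the size of its change it had rank 27 (20 ng/ml) and rank 29 (200 ng/ml) of the 19944 genes.

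A match to GAAANGAAA, where N is any base, crosses an annotated start of XAF1, so the bases around it are shown. RefSeq (GRCh38.p14) gives XAF1 a start at position 6756046 and another at 6755447. Counted from the first of these, the match to GAAANGAAA on the plus strand runs from position -5 to 4, at chr17:6756041-6756049. XAF1-202, the most abundant transcript of the gene, starts at 6755840, before the RefSeq start at 6756046. The match therefore lies within the span of that transcript. The stretch at chr17:6756031-6756060 is printed with the match in capitals:
XAF1 start: ttgcctgcaaGAAACGAAActcaaccgaaa
Over windows from 250 bases before a start to 50 bases after it, 3.12% of 35116 RefSeq windows hold GAAANGAAA on either strand. The motif and the longer window were chosen after the sequences had been seen. In the 250 bases before the starts alone, XAF1 had no match to GAAANGAAA, to TTCNNNGAA or to GAAA repeats with any 2 bases between them in either window, on either strand. The longer XAF1 windows likewise held no match to TTCNNNGAA or to the form with 2 bases.

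XIAP, the caspase inhibitor that XAF1 binds, showed no change that passed the test at either dose. It lies on chromosome X at 123859724 to 123913979 on the plus strand (ENSG00000101966). In A1, A2, D1 and D2 it was at 26.1, 13.7, 14.3 and 25.7 TPM. The samples at 20 ng/ml were at 11.9, 25.9, 14.5 and 20.1 TPM in B1, B2, E1 and E2, and those at 200 ng/ml at 19.9, 27.6, 24.0 and 14.7 TPM in C1, C2, F1 and F2. Low and high values occurred at every dose, and all 3 doses overlapped. The means were 19.97 ± 6.9 TPM (SD, n = 4) in controls, 18.1 ± 6.2 TPM at 20 ng/ml and 21.6 ± 5.6 TPM at 200 ng/ml. The edgeR estimate from counts was −0.77 ± 0.44 (SE) at 200 ng/ml, with a 95% interval of −1.75 to 0.21 (adjusted p = 0.326), and −0.67 ± 0.43 at 20 ng/ml (adjusted p = 0.506). Estimated counts of XIAP spread far more than its TPM, with 10.8-fold between the lowest and highest sample in counts and 2.33-fold in TPM. Sample C2 had the lowest XIAP count of all 12 samples, 127, and the highest TPM. With counts corrected for length, an alternative added after this was seen, the log2 change at 200 ng/ml was 0.07 ± 0.31 (adjusted p = 0.968), so the sign of the XIAP estimate depends on the scale.

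TNFSF10, the gene of the ligand TRAIL, rose at both doses and had the higher mean in line set A-C at every dose. It lies on chromosome 3 at 172505508 to 172523507 on the minus strand (ENSG00000121858). The controls were at 36.4 and 16.5 TPM in A1 and A2 and at 17.6 and 11.4 TPM in D1 and D2. The low dose gave 113 and 99.4 TPM in B1 and B2, but 38.8 and 37.8 TPM in E1 and E2. With the high dose C1 and C2 reached 161 and 191 TPM and F1 and F2 reached 130 and 107 TPM. In TPM no treated sample overlapped with a control, although E2 lay only just above A1. In CPM, counts scaled to the library total, E1 (34.2) and E2 (33.5) lay below A1 (40.1), so the low dose then overlapped with the controls. The level went from 20.5 ± 10.9 TPM (SD, n = 4) to 72.2 ± 39.6 and 147 ± 36.5 TPM. The log2 change was 1.60 ± 0.25 (SE) at 20 ng/ml (3.04-fold, edgeR adjusted p = 0.0064) and 2.91 ± 0.26 at 200 ng/ml (7.53-fold, edgeR adjusted p = 0.00011). With the line set left out of the model, neither change passed (edgeR adjusted p = 0.053 at 200 ng/ml and 0.590 at 20 ng/ml).

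The sequence before the TNFSF10 start holds a pair of GAAA repeats on the opposite strand and is shown for that reason. Counted from the RefSeq start at 172523430, a match to GAAA repeats with any 2 bases between them lies at positions -187 to -178, at chr3:172523608-172523617. It is printed within chr3:172523508-172523680, read 5′ to 3′ on the gene's minus strand, with the match in capitals, which reads as GAAA repeats on the other strand:
TNFSF10 upstream: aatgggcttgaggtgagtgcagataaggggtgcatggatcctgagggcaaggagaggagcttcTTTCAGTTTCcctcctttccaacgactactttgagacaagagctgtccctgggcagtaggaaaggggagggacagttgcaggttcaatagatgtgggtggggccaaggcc
A match to GAAANGAAA lies closer to the start, at positions -49 to -41 (chr3:172523471-172523479), and is in capitals in the stretch at chr3:172523460-172523489:
TNFSF10 near the start: actcattcgcTTTCATTTCctcactgacta
TNFSF10-201, the most abundant transcript of the gene, starts at 172523507, before the RefSeq start. The match near the RefSeq start therefore lies within the span of that transcript, and the farther match lies before it. Among the 250-base windows before all 35116 RefSeq starts, 3.02% hold the form with 2 bases between the repeats and 2.69% hold GAAANGAAA, on either strand. Some windows of other genes may hold both, since the motifs can overlap. TTCNNNGAA, held by 6.57% of windows, had no match in TNFSF10. XIAP and FAS, with 3 windows each, had no match to any of these motifs. A match is a description of the letters and not evidence of binding.

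TNFRSF10A, which encodes the TRAIL receptor DR4, showed a small rise with little spread. It lies on chromosome 8 at 23190452 to 23225126 on the minus strand (ENSG00000104689). The 4 controls were at 41.7, 42.4, 41.9 and 43.3 TPM in A1, A2, D1 and D2. B1 and B2 were both at 50.1 TPM, and E1 and E2 were at 56.9 and 60.5 TPM. C1 and C2 were at 56.4 and 57.5 TPM and F1 and F2 at 62.6 and 63.3 TPM. All 8 treated samples lay above all 4 controls. The log2 change was 0.37 ± 0.06 (SE) at 20 ng/ml (1.29-fold, edgeR adjusted p = 0.0082) and 0.47 ± 0.06 at 200 ng/ml (1.39-fold, edgeR adjusted p = 0.0012). XAF1 and TNFRSF10A passed at 200 ng/ml in all 22 alternative settings tried, and TNFSF10 in 21 of 22. The rise of TNFRSF10A at 20 ng/ml passed in 21 of 22 and was lost with the line set left out of the model (edgeR adjusted p = 0.244).

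TNFRSF10B, which encodes the other death-domain TRAIL receptor, DR5, was the most abundant of the 7 genes in controls and did not pass over both line sets. It lies on chromosome 8 at 23020133 to 23069179 on the minus strand (ENSG00000120889). Controls were at 88.2 and 105 TPM in A1 and A2 and at 69.6 and 68.8 TPM in D1 and D2. Values at 20 ng/ml were 88.1, 83.4, 92.7 and 80.5 TPM in B1, B2, E1 and E2, and at 200 ng/ml they were 87.2, 83.0, 87.9 and 85.4 TPM in C1, C2, F1 and F2. In TPM the treated samples of A-C lay below both of their controls, B1 only just, whereas those of D-F lay above both of theirs. In CPM the treated samples of A-C lay on both sides of their controls, between 146 and 164 against 153 and 161, and the edgeR change in A-C was 0.04 at both doses. The edgeR log2 change over both sets was 0.19 ± 0.06 (SE) at 200 ng/ml, with a 95% interval of 0.06 to 0.33 (adjusted p = 0.0810), and 0.18 ± 0.06 at 20 ng/ml (adjusted p = 0.162). In DESeq2 the change at 200 ng/ml passed (adjusted p = 0.0451), the sole alternative of 22 in which it did.

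TNFRSF10D, the decoy receptor, was the lowest of the 3 TRAIL receptors among the 7 genes and showed no change that passed in edgeR. It lies on chromosome 8 at 23135588 to 23164030 on the minus strand (ENSG00000173530), between TNFRSF10B and TNFRSF10A. The controls were at 13.1, 14.2, 16.4 and 16.2 TPM in A1, A2, D1 and D2. With 20 ng/ml the values were 9.01, 8.60, 15.7 and 16.8 TPM in B1, B2, E1 and E2, and at 200 ng/ml they were 9.92, 13.3, 17.0 and 14.3 TPM in C1, C2, F1 and F2. The samples of A-C were the lower ones at every dose, and over both sets the doses overlapped. The edgeR log2 change was −0.35 ± 0.11 (SE) at 20 ng/ml, with a 95% interval of −0.60 to −0.11 (adjusted p = 0.123), and −0.18 ± 0.11 at 200 ng/ml (adjusted p = 0.354). In A-C alone it was −0.63 ± 0.15 at 20 ng/ml (edgeR adjusted p = 0.110), which passed in DESeq2 (adjusted p = 0.0386), the sole alternative of 21 in which it did.

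FAS, the receptor of FAS ligand, was higher in every treated sample in TPM, but its counts did not pass the test. It lies on chromosome 10 at 88990582 to 89015785 on the plus strand (ENSG00000026103). The controls lay close together, both A1 and A2 at 15.9 TPM, D1 at 16.9 and D2 at 17.9 TPM. B1, B2, E1 and E2 (20 ng/ml) were at 20.8, 22.3, 31.1 and 24.9 TPM, and C1, C2, F1 and F2 (200 ng/ml) were at 21.1, 25.1, 19.0 and 27.0 TPM. The treated samples did not overlap with the controls. The means were 16.7 ± 0.9 TPM (SD, n = 4) in controls, 24.8 ± 4.6 TPM at 20 ng/ml and 23.0 ± 3.6 TPM at 200 ng/ml. From counts, which ranged from 188 to 429, the edgeR log2 change was 0.19 ± 0.27 (SE) at 200 ng/ml (adjusted p = 0.738) and 0.21 ± 0.26 at 20 ng/ml (adjusted p = 0.783). On log2(TPM + 0.1) in limma it was 0.45 ± 0.13 at 200 ng/ml (adjusted p = 0.0882) and 0.55 ± 0.13 at 20 ng/ml (adjusted p = 0.0792), which passed at neither dose. In TPM, 4 of the 7 genes, XAF1, TNFSF10, TNFRSF10A and FAS, did not overlap between controls and treated samples at either dose, against 4.4% of all genes tested at 200 ng/ml and 3.2% at 20 ng/ml. In CPM the values of FAS overlapped at both doses, and those of TNFSF10 at 20 ng/ml.

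Set side by side in TPM, the order of the 7 genes changed between 0 and 200 ng/ml. In controls TNFRSF10B (82.8 TPM on average) and TNFRSF10A (42.3 TPM) led, and XAF1 (7.13 TPM) was last, each without overlap with its neighbour in the order. TNFSF10, XIAP, FAS and TNFRSF10D lay between them, and their ranges over the 4 controls overlapped. At 200 ng/ml the order was XAF1 (211 TPM), TNFSF10 (147 TPM), TNFRSF10B (85.9 TPM) and TNFRSF10A (59.9 TPM), with no overlap between neighbours. FAS (23.0 TPM), XIAP (21.6 TPM) and TNFRSF10D (13.6 TPM) followed, each overlapping with the next. XAF1 made up 3.49% of the summed mean TPM of the 7 genes in controls and 37.5% at 200 ng/ml, and TNFSF10 made up 10.03% and 26.2%.

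Ratios within a sample, which do not depend on the depth of that sample, were compared for partners that bind each other as proteins. The log2 ratio of XAF1 to XIAP was −1.87, −0.75, −1.21 and −1.87 in A1, A2, D1 and D2, and all 8 treated samples lay between 2.26 and 3.98. Transcripts of XAF1 were thus fewer than those of XIAP in every control and more in every treated sample. The mean ratio went from −1.42 ± 0.55 (SD, n = 4) to 3.33 ± 0.46 at 200 ng/ml, a difference of 4.75 (exact permutation test, two-sided, labels exchanged inside each line set, p = 0.0556, which is the smallest that 36 arrangements allow). A threshold of 0.05 therefore could not be reached by any of these ratios.

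The log2 ratio of TNFSF10 to the sum of TNFRSF10A and TNFRSF10B was between −3.29 and −1.83 in the 4 controls. It reached −0.29 and −0.43 in B1 and B2 and −1.95 and −1.90 in E1 and E2. The high dose gave 0.17 and 0.44 in C1 and C2 and −0.21 and −0.47 in F1 and F2, so the ligand exceeded the summed receptors in transcript number in C1 and C2 and in no other sample. The mean rose by 2.71 at 200 ng/ml and by 1.59 at 20 ng/ml (exact permutation p = 0.0556 for each).

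TNFRSF10D made up 9.14% and 8.82% of the summed TPM of TNFRSF10A, TNFRSF10B and TNFRSF10D in A1 and A2, and 12.8% and 12.6% in D1 and D2. The low dose gave 6.13% and 6.06% in B1 and B2 and 9.49% and 10.6% in E1 and E2. The share was 6.47% and 8.67% in C1 and C2 and 10.1% and 8.80% in F1 and F2 at 200 ng/ml. Within each line set every treated sample was below both of its controls, C2 only just, while between sets they overlapped. The TNFRSF10D share fell by 2.34 percentage points at 200 ng/ml and fell by 2.78 at 20 ng/ml (exact permutation p = 0.0556 for each). TNFRSF10C, the other membrane decoy receptor for TRAIL, is not part of this sum.

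**Figure D2:**
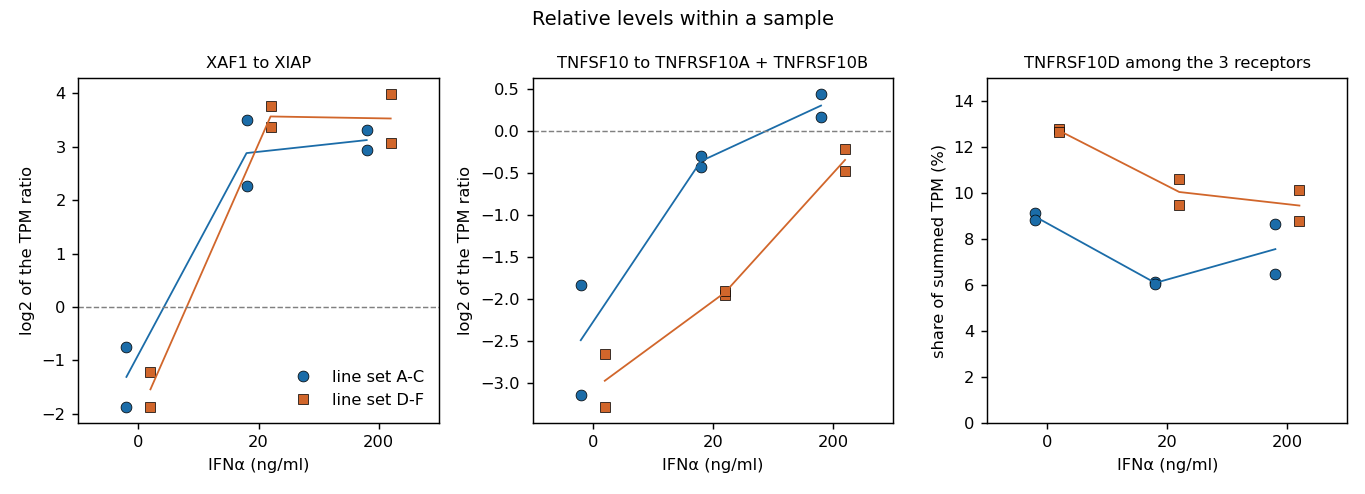
The left and middle panels plot the log2 ratio of TPM of XAF1 to XIAP and of TNFSF10 to TNFRSF10A plus TNFRSF10B. The right panel plots the share (%) of TNFRSF10D in the summed TPM of TNFRSF10A, TNFRSF10B and TNFRSF10D. Values are set against the IFNα dose in ng/ml, with 1 point per sample and lines through the means of line sets A-C and D-F. The XAF1 ratio crosses 0 between the controls and 20 ng/ml, and the TNFSF10 ratio passes 0 only in C1 and C2. The TNFRSF10D share is lower in the treated samples of each set than in its controls.

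Each line set was then compared by itself, with the spread still estimated over all 12 samples. In A-C, XAF1 (4.69 ± 0.12, SE), TNFSF10 (2.86 ± 0.36) and TNFRSF10A (0.43 ± 0.08) passed at 200 ng/ml, which is 3 of 7 genes against 7.18% of all genes tested. In D-F the same genes passed, with 5.00 ± 0.12, 2.97 ± 0.37 and 0.51 ± 0.08, together with TNFRSF10B (0.35 ± 0.09, edgeR adjusted p = 0.0463), which is 4 of 7 against 5.84% of all genes. TNFRSF10B passed in D-F in 5 of 21 alternatives, and TNFRSF10A in 16 of 21 in A-C and 17 of 21 in D-F. Without D1, D2, F1 or F2, the count in D-F was 2 genes. After 20 ng/ml, XAF1 (4.02 ± 0.12) and TNFSF10 (2.09 ± 0.35) passed in A-C against 1.11% of all genes, and XAF1 (4.91 ± 0.12) and TNFRSF10A (0.48 ± 0.08) passed in D-F against 3.37%. Without B1 or B2 the count in A-C at 20 ng/ml was 1 gene, and without D1, D2 or E2 it was 1 gene in D-F. TNFSF10 at 20 ng/ml in D-F had a log2 change of 1.12 ± 0.36 (edgeR adjusted p = 0.152), which passed in DESeq2 (adjusted p = 0.0164) and in edgeR without A1 (0.0176) or without A2 (0.0175). The size of the TNFSF10 change in A-C rested on its unequal controls, with 3.65 at 200 ng/ml and 2.89 at 20 ng/ml without A1, and 2.33 and 1.56 without A2.

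The responses of the 2 line sets were compared with an interaction term, D-F minus A-C. For 200 ng/ml 0 of the 7 genes passed in edgeR, against 1.88% of all genes tested, with 1 at an unadjusted p under 0.05 (TNFRSF10B, 0.31 ± 0.12 SE, adjusted p = 0.223), and none in DESeq2 or limma. For 20 ng/ml 0 of 7 passed in edgeR, against 0.371% of all genes, with XAF1, TNFRSF10D and TNFRSF10B at an unadjusted p under 0.05. The estimate for XAF1 at 20 ng/ml was 0.88 ± 0.16 higher in D-F (edgeR adjusted p = 0.0610), which passed in DESeq2 (adjusted p = 0.00594) and not in limma. The estimate for TNFSF10 at that dose was −0.96 ± 0.49, with a 95% interval of −2.07 to 0.14 (edgeR adjusted p = 0.538). It was −1.76 without A1 and −0.44 without A2, and passed in neither.

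**Figure D3:**
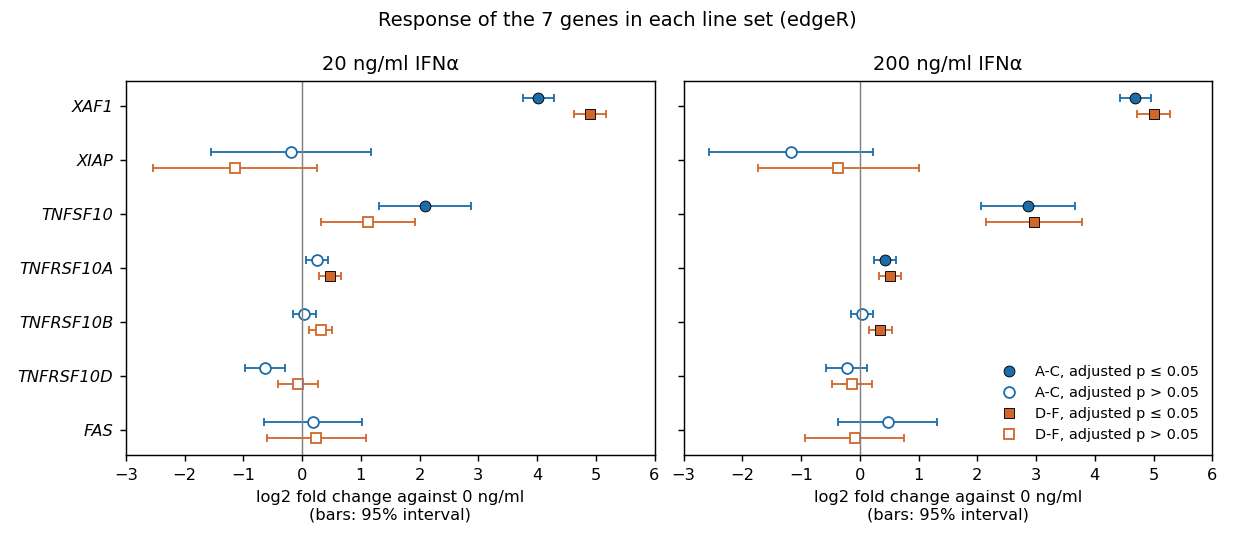
Log2 fold change of each of the 7 genes against 0 ng/ml in edgeR, with 95% intervals as bars, at 20 ng/ml (left) and 200 ng/ml (right), for line sets A-C and D-F, with filled points at an adjusted p of at most 0.05. XAF1 lies between 4.02 and 5.00 in the 4 comparisons, TNFSF10 between 1.12 and 2.97, and the intervals of XIAP and FAS are wide and include 0.

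The step from 20 to 200 ng/ml was compared directly. In edgeR 0 of the 7 genes passed, against 0.135% of all genes tested, with XAF1 and TNFSF10 at an unadjusted p under 0.05. TNFSF10 was higher at 200 than at 20 ng/ml by a log2 difference of 1.31 ± 0.24 (SE, 95% interval 0.77 to 1.85), and XAF1 by 0.38 ± 0.07 (0.23 to 0.54), both with an edgeR adjusted p of 0.107. Both passed in DESeq2, with adjusted p = 6.2e-06 for TNFSF10 and 0.0019 for XAF1, and neither in limma. TNFSF10 passed in edgeR too without A1 (adjusted p = 0.0133) or without A2 (0.0130), with the samples of these doses alone (0.0135) and without the low-count filter (0.0490). Within line sets the step of XAF1 was 0.67 ± 0.10 for A-C, where 0.12% of all genes passed, and 0.10 ± 0.10 for D-F, where 0.0251% did. The step of TNFSF10 was 0.77 ± 0.33 for A-C and 1.84 ± 0.35 for D-F, and none of these 4 values passed in edgeR. The contrast of D-F minus A-C, chosen after these values had been seen and passed by 0.0401% of all genes, was −0.57 ± 0.14 for XAF1 (edgeR adjusted p = 0.382) and 1.07 ± 0.47 for TNFSF10 (edgeR adjusted p = 0.548). TNFRSF10A differed by 0.10 ± 0.06 between the doses, with a 95% interval of −0.03 to 0.24.

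The untreated line sets were compared as well, D against A, where 46.4% of all genes tested passed. XAF1 was lower in D by −0.72 ± 0.12 (SE, edgeR adjusted p = 0.00093) and TNFRSF10B by −0.59 ± 0.09 (edgeR adjusted p = 0.00039), which is 2 of 7 genes. XAF1 did not pass on log2(TPM + 0.1) in limma, with −0.21 (adjusted p = 0.182), nor with counts corrected for length, while TNFRSF10B passed in all 21 alternatives. TNFSF10 was at −0.94 ± 0.36 (edgeR adjusted p = 0.0548). The TNFSF10 difference was −0.14 without A1 (edgeR adjusted p = 0.685) and −1.46 without A2, where it passed.

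At the level of transcripts, the table held 69 transcripts of the 7 genes, of which 21 are annotated as protein coding and 45 had enough reads to be tested. In edgeR 8 of them passed at 200 ng/ml, all higher, against 0.597% of the transcripts tested, and 6 passed at 20 ng/ml, against 0.348%. Those 6 were transcripts of XAF1, and at 200 ng/ml the same 6 passed together with TNFSF10-201 and TNFSF10-204. All 15 tested transcripts of XAF1 and all 5 of TNFSF10 had a positive log2 change at both doses.

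XAF1-202, the leading XAF1 transcript with 7 exons and a reading frame of 301 residues, went from 2.77 TPM in controls to 56.3 and 73.1 TPM on average. Its log2 change was 4.66 ± 0.16 (SE) at 200 ng/ml (edgeR adjusted p = 4.2e-05). The others that passed were the retained intron XAF1-209 (4.89 ± 0.46), the transcripts annotated for nonsense-mediated decay XAF1-219 (6.89 ± 0.78), XAF1-216 (5.17 ± 0.69) and XAF1-214 (4.04 ± 0.45), and the processed transcript XAF1-215 (6.37 ± 0.70). XAF1-219 and XAF1-215 had at most 3 and at most 1 counts in the controls, so that the size of their fitted change depends on how low counts are treated. XAF1-202 held 38.8% ± 15.4 (SD, n = 4) of the transcripts' summed TPM in controls and 35.0% ± 9.1 at 200 ng/ml (exact permutation p = 0.778). The share was higher in A-C than in D-F at 20 and 200 ng/ml, with 39.9% to 45.9% in B and C against 25.2% to 29.6% in E and F.

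TNFSF10-201, the full-length TRAIL transcript of 5 exons and 281 residues, rose by 2.90 ± 0.35 (SE) at 200 ng/ml (edgeR adjusted p = 0.0160). The retained intron TNFSF10-204 rose by 2.00 ± 0.30 (edgeR adjusted p = 0.0393). TNFSF10-201 made up 75.9% ± 13.3 (SD, n = 4) of the gene in controls and 84.3% ± 3.5 at 200 ng/ml (exact permutation p = 0.278). In E1 and E2 its share was 52.5% and 47.9%, the lowest of all samples.

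**Figure D4:**
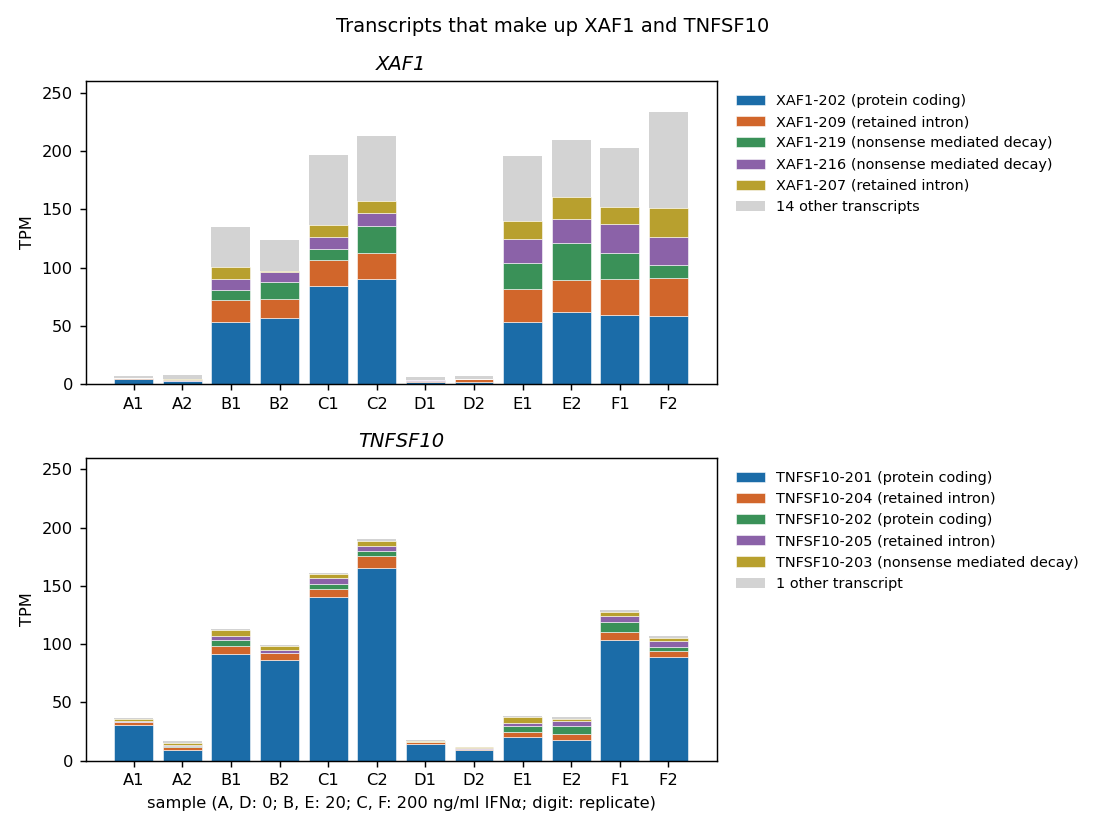
Stacked bars of TPM of the 5 most abundant transcripts of XAF1 (top) and TNFSF10 (bottom) and of the remaining ones in grey, in each of the 12 samples. XAF1-202 makes up 25.2% to 61.3% of XAF1, with much of the rest in noncoding transcripts, whereas TNFSF10-201 makes up 47.9% to 87.0% of TNFSF10.

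No transcript of the other 5 genes was among those that passed in edgeR. TNFRSF10D has a single transcript in the table, TNFRSF10D-201 (386 residues), and TNFRSF10A-201 (468 residues) made up 85.0% to 94.1% of TNFRSF10A. TNFRSF10A-201 had a log2 change of 0.41 ± 0.10 (SE) at 200 ng/ml (edgeR adjusted p = 0.215). TNFRSF10B-201 (440 residues) averaged 27.3 TPM in controls and 47.1 TPM at 200 ng/ml (log2 change 0.70 ± 0.29, edgeR adjusted p = 0.535), while the retained intron TNFRSF10B-208 averaged 22.8 and 7.85 TPM (−1.48 ± 0.88, edgeR adjusted p = 0.676). Protein coding transcripts held 21.9% to 57.1% of TNFRSF10B in controls and 59.3% to 78.8% at 200 ng/ml, without overlap, and 46.0% to 71.1% at 20 ng/ml, with overlap.

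For XIAP the coding share went the other way. Protein coding transcripts made up 68.1% to 70.3% of XIAP in the 4 controls, 22.4% to 66.4% at 20 ng/ml and 6.22% to 59.6% at 200 ng/ml, so that all treated samples were below all controls. XIAP-202 (497 residues, 8591 bases) had 292 to 1214 counts in controls, 0 (in E2) to 1256 at 20 ng/ml and 45 (in C2) to 748 at 200 ng/ml. Its log2 change at 200 ng/ml was −1.43 ± 1.37 (edgeR adjusted p = 0.844). XIAP-201, also of 497 residues, had 0 to 447 counts in controls and 0 to 249 at 200 ng/ml. How reads were divided between these transcripts was not tested. XIAP-210, a processed transcript of 533 bases, averaged 2.75 TPM in controls and 4.71 TPM at 200 ng/ml. These coding shares of TNFRSF10B and XIAP were picked out after their values had been seen and were not tested. Between controls and 200 ng/ml the coding shares of XAF1, TNFRSF10A and FAS overlapped, and that of TNFSF10 did not. How often coding shares of all genes fail to overlap was not determined. FAS-204 (335 residues) made up from 5.39% to 95.9% of FAS over the 12 samples, so that its share is poorly determined (exact permutation p = 0.389 between 0 and 200 ng/ml). FAS-211, annotated for nonsense-mediated decay, had 0 counts in all 4 samples at 200 ng/ml and 0 to 44 in controls.

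The wider death pathway was described with 56 further genes in 4 lists, of which 51 were tested. At 200 ng/ml 9 passed as higher and 3 as lower, which is 12 of 51 genes, beside 9.55% of all genes tested. After 20 ng/ml 6 passed, all higher, beside 3.93%. The median log2 change was 0.13 at 200 ng/ml and 0.08 at 20 ng/ml, beside −0.01 over all genes.

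The receptor complex, with a median log2 change of 0.33, held most of the genes that rose at 200 ng/ml. While 4.98% of all genes tested passed as higher, 7 of its 14 genes did, and none passed as lower. Among them were the apical caspase CASP8 (0.63 ± 0.09, SE), the adaptor FADD (0.31 ± 0.08) and the kinase RIPK1 (0.55 ± 0.08). CFLAR, which encodes the caspase-8 inhibitor FLIP, rose by 0.98 ± 0.13 (edgeR adjusted p = 0.00132), and TNFAIP3, the ubiquitin-editing enzyme A20, by 0.97 ± 0.08 (edgeR adjusted p = 6.2e-05). The rise of TNFAIP3 differed between line sets, with 1.72 ± 0.12 in D-F and 0.23 ± 0.11 in A-C at 200 ng/ml (interaction term, edgeR adjusted p = 0.0039), and it passed in D-F and not in A-C at either dose. CASP8AP2 rose by 0.36 ± 0.06. PEA15, an inhibitor of death receptor signalling, was the one gene of the 4 lists called at 200 ng/ml, with 1.38 ± 0.32 (edgeR adjusted p = 0.0255). It was at 42.0, 43.2, 40.1 and 33.9 TPM in A1, A2, D1 and D2, at 116 and 130 TPM in C1 and C2 and at 92.6 TPM in F1, but at 27.1 TPM in F2, below every control. In A-C alone 4 of 14 passed at 200 ng/ml (CASP8, CFLAR, PEA15 and CASP8AP2), beside 7.18% of all genes tested. In D-F alone 5 of 14 passed (FADD, CFLAR, RIPK1, CASP8AP2 and TNFAIP3), beside 5.84%. With 20 ng/ml 2 of 14 passed over both sets, CFLAR (0.61 ± 0.13) and TNFAIP3 (0.78 ± 0.08), beside 3.93% of all genes tested.

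In the mitochondrial and effector list 3 of 23 genes passed at 200 ng/ml, near the 9.55% of all genes tested, with a median of 0.10. The BH3-only gene PMAIP1 (NOXA) rose by 0.79 ± 0.14 (SE), while the pore-forming BAX fell by 0.56 on the log2 scale (SE 0.09) and the initiator caspase CASP9 fell by 0.84 (SE 0.20). With 20 ng/ml 2 of 23 passed, PMAIP1 (0.67 ± 0.13) and BAK1 (0.47 ± 0.11), beside 3.93% of all genes tested. Of the other IAP genes 1 of 5 tested passed at both doses (beside 9.55% and 3.93% of all genes), BIRC3, which encodes cIAP2, with 0.86 ± 0.12 at 200 ng/ml and 0.80 ± 0.12 at 20 ng/ml. BIRC2, which encodes cIAP1, was at 0.42 ± 0.18 at 200 ng/ml (edgeR adjusted p = 0.185). BIRC7 and BIRC8 were not tested, with at most 2 and 0 counts in any sample.

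Of the other death ligands and receptors 1 of 9 tested passed at 200 ng/ml, near the 9.55% of all genes. This was TNFRSF12A, which fell by 0.45 on the log2 scale over both sets (SE 0.10). TNFRSF12A fell in A-C (−1.26 ± 0.15) and did not pass in D-F (0.37 ± 0.15), and the sets differed by 1.63 ± 0.21 (edgeR adjusted p = 0.0084). With TNFAIP3, TNFSF15, BID and BAK1 it was among 5 of 51 pathway genes whose change at 200 ng/ml differed between line sets, beside 1.88% of all genes. TNFSF12 (TWEAK) passed at 20 ng/ml with a fitted log2 change of 3.11 ± 0.67 (edgeR adjusted p = 0.0394), which rests on low counts. It had 0 counts in A1 and A2 and 14 and 13 counts in B1 and B2, which is at least 4.70-fold higher in CPM against 3 counts per library, but 108 and 87 counts in D1 and D2 and 46 and 63 in E1 and E2. FASLG, the ligand of FAS, had 0 counts in every sample, and TNFRSF11B and EDAR had at most 12 and 4 counts and were not tested. TNFRSF10C, the second membrane decoy receptor for TRAIL, was at 0.62 to 2.03 TPM in A-C and at 5.90 to 8.24 TPM in D-F, with a log2 change of 0.28 ± 0.29 at 200 ng/ml (edgeR adjusted p = 0.631).

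**Figure D5:**
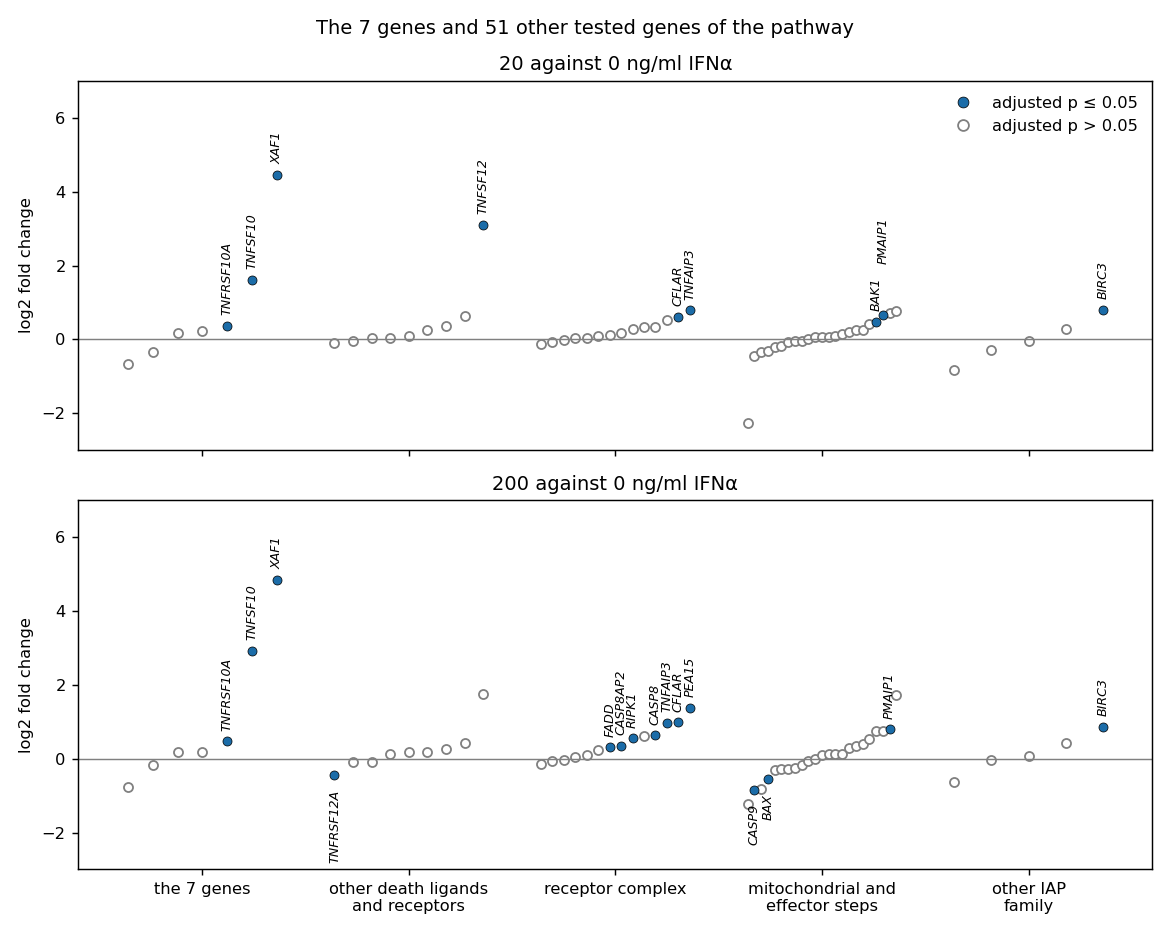
Log2 fold change against 0 ng/ml in edgeR, averaged over both line sets, at 20 ng/ml (top) and 200 ng/ml (bottom) for the 7 genes and the 51 tested genes of 4 pathway lists, each point a gene sorted by its change within its list, with filled and named points at an adjusted p of at most 0.05. XAF1 and TNFSF10 stand above the pathway genes at 200 ng/ml. There 7 of 14 receptor complex genes are filled, beside 9.55% of all genes tested, and 2 of 14 at 20 ng/ml, beside 3.93%.

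Around the 7 genes, 48 other genes lie within 100 kb by the coordinates of the files, and 18 of them were tested. Averaged over both line sets, FBXO39 alone passed, at both doses, which is 1 of 18 beside 9.55% and 3.93% of all genes tested. In A-C at 200 ng/ml R3HCC1, 44994 bases from TNFRSF10A, also passed, with −0.96 ± 0.25 (edgeR adjusted p = 0.0475). FBXO39 starts 576 bases after the end of XAF1 on the same strand, at 6776223 on chromosome 17. FBXO39 had 6 to 13 counts in controls and 31 to 73 at 200 ng/ml. Its log2 change was 2.83 ± 0.25 (SE, edgeR adjusted p = 0.00012) at 200 ng/ml and 2.25 ± 0.25 at 20 ng/ml. Whether reads of XAF1 contribute to it was not tested. Genes on the opposite strand overlap with FAS (ACTA2), TNFRSF10B (RHOBTB2) and TNFRSF10A (AC100861.1), none of which passed at either dose. The libraries kept the strand, but whether the counting used it is not given in the sources used here. TNFRSF10C lies 15176 bases from TNFRSF10B and 18151 from TNFRSF10D.

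The genes whose log2 CPM was most like those of each of the 7 genes over the 12 samples are given as a description, since all the points share the same doses and line sets. For XAF1 they included OAS1 (r = 0.996) and PLSCR1 (0.994), and for TNFRSF10A they were SMCR8 (0.987), SP110 (0.985) and PNPT1 (0.984). For TNFSF10 they were C3orf38 (0.944), UHRF2 (0.939) and GPR180 (0.937). TNFRSF10B was most like KCTD14 (0.980), SCNM1 (0.980) and ZMYND15 (0.974), and TNFRSF10D like SNX30 (0.929). The closest named genes were STOML2 for XIAP (0.907) and TARDBP for FAS (0.807). Among the 7 genes themselves XAF1 and TNFRSF10A were the most alike (0.963), followed by XAF1 and TNFSF10 (0.818) and by TNFSF10 and TNFRSF10A (0.808).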

How the data were processed

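Total RNA of 12 samples was depleted of rRNA, made into stranded libraries and sequenced by the authors on the HiseqXTen platform. The submitters' processing notes name Trimmomatic 0.36, HISAT2 2.1.0, StringTie 1.3.3b and the build GRCh38.p10, without further settings. The authors deposited estimated counts in whole numbers, which are not scaled, beside TPM values, which they scaled for length and depth, for 60099 genes and 201521 transcripts. The deposited FPKM values were not used. Counts of a gene are sums over its transcripts, and dividing reads between transcripts of unequal length moves a gene's TPM apart from its count.

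Samples were grouped by letter, from the titles. Counts were fitted with edgeR 4.0.16 in R 4.3.3 (TMM, filterByExpr, quasi-likelihood test, 6 groups of letter, Benjamini-Hochberg adjustment over all 19944 genes or 75876 transcripts), and the SE is the log2 change divided by the square root of F. The spread in edgeR (common biological coefficient of variation) came to 0.196 for genes, and to 0.837 for transcripts. Ratios used TPM + 0.01 and exact two-sided permutation tests within line sets. Alternatives were DESeq2 1.42.0, limma 3.58.1 on log2(TPM + 0.1), other scalings, filters and sample sets, and a replicate block. Tables and figures were made in Python 3.11.15 with pandas 2.3.3, numpy 2.4.6, scipy 1.17.1 and matplotlib 3.10.9. Promoters are from RefSeq (GRCh38.p14), with windows for XAF1, XIAP, TNFSF10 and FAS, and transcript models from GENCODE 29, in which all 69 transcripts had the same position as in the files.

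The rule for named genes took the 7 genes, per pathway list those that passed with at least 2-fold and otherwise the 4 with the smallest adjusted p, neighbours that passed, the 3 most like genes, and transcripts that passed or were the 2 most abundant of a gene. Other pathway genes, overlapping genes, FAS-211 and the coding shares were named after their values had been seen. Single values of some listed or most like genes are not reported here. These genes and lists were chosen with earlier results of these data known. Tested on simulated data for 200 against 0 ng/ml, with 50 genes changed at each fold among 19339, edgeR recovered 11 at 1.5-fold, 33 at 2-fold, 41 at 4-fold and 48 at 8-fold, with 5 false calls in all. Of 50 transcripts among 67720 it recovered 0 at 2-fold, 1 at 4-fold, 7 at 8-fold and 17 at 32-fold, with 0 false calls. Transcripts were simulated with nearly their own spread, whereas genes were simulated with the spread of the fit, which is drawn towards a common value.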

Additional observations from a re-analysis of the deposited data

Results flagged for a closer look

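For groups of 4 samples, the gap of the farthest sample was compared with Dixon's critical value of 0.829, in 39 groups of one dose. For samples of a single population and independent groups, chance gives about 1 in 20, or 1.95 groups, and 2 stood out. Each group mixes both line sets and the groups share samples, so 1.95 is only a rough guide. The share of TNFSF10-201 among the TNFSF10 transcripts, in TPM with a pseudocount of 0.01, was 56.0% in A2, against 80.7% to 84.9% in the other 3 controls, and A2 also had 16.5 TPM of TNFSF10 against 36.4 TPM in A1. The share of FAS-204 among the FAS transcripts was 95.9% in C2, far above the other 3 samples at 200 ng/ml, which lay between 9.75% and 21.5%. C2 is also the sample with the lowest XIAP count and the lowest coding share of XIAP, 6.22%.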

How the results depend on the processing

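The direction of no called change of the 7 genes reversed under any alternative. Of the values for single genes, 1582 kept their side of the threshold, 38 lost and 18 gained it, and 427 counts and ratios stayed within their limits while 62 moved. Without the line set in the model, 1 gene was called at 200 ng/ml, 1 passed and 1 was called at 20 ng/ml, and 0 pathway genes passed at 200 and at 20 ng/ml and 0 neighbours at 20 ng/ml. In DESeq2, 2 of the 7 genes passed and 1 was called between 200 and 20 ng/ml (without the low-count filter, 1 and 1, and with the compared doses alone, 1 and 1), 4 passed at 20 ng/ml in D-F, 1 differed between sets at 20 ng/ml, 2 neighbours passed at 20 ng/ml, and 15 and 16 transcripts passed at 200 and 20 ng/ml in place of 8 and 6. In A-C at 20 ng/ml 1 gene passed with the compared doses alone. In D-F at 20 ng/ml 1 passed without the filter and 1 with length-corrected counts, an alternative added after the data had been seen. With library totals only, 1 gene (XAF1) differed between sets at 20 ng/ml, and in limma 1 passed between the controls. In CPM in place of TPM the XAF1 to XIAP difference at 200 ng/ml was 5.75, and that of the TNFRSF10D share was −3.55 at 200 and −4.13 at 20 ng/ml. With the replicate block, 1 transcript passed at each dose and 3 pathway genes at 20 ng/ml, and of the 7 genes 1 result no longer passed (TNFRSF10B in D-F at 200 ng/ml, edgeR adjusted p = 0.0929). The log2 difference of replicate 1 minus replicate 2 of a letter correlated at −0.051 to 0.058 with that of another letter of its line set. The labels do not say whether samples with the same replicate number belong together.

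Leaving out 1 sample at a time, the lone sample being assumed to vary like the others, gave 3 to 3 genes passed at 200 and at 20 ng/ml, 0 to 1 passed or called between the doses (1 without A1 or A2), 2 to 4 at 200 ng/ml in D-F, 1 to 2 at 20 ng/ml in A-C and 1 to 3 at 20 ng/ml in D-F. Pathway genes numbered 2 to 6 at 20 ng/ml, with 3 or fewer without any 1 of A1, A2, B1, B2, D1, D2, E1 or E2, neighbours 1 to 2 at either dose, and transcripts 4 to 7 at 200 ng/ml and 3 to 4 at 20 ng/ml. The cause of these shifts was not tested. With 2 samples per letter, changes near 1.5-fold were recovered seldom in simulation. The SE at 200 ng/ml was 0.06 for TNFRSF10B and 0.11 for TNFRSF10D, against 0.27 for FAS and 0.44 for XIAP, so that the limit on small changes is wider for FAS and XIAP.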
